A study of Mus musculus with 8 samples.

Results

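The genes described here are 7 cytokine genes of the mouse macrophage line RAW264.7: the IL-12 family genes Il12a, Il12b, Il23a, Il27 and Ebi3, and with them Il10 and Il15. They were chosen by the gene name printed for each probe on the array, which gave 9 probes (3 for Il15 and 1 for each other gene) among 56605 probes and 27499 named genes. Cultures had a 1 h pretreatment with 1 mM melatonin or no pretreatment, followed by bacterial lipopolysaccharide (LPS) for 0, 1, 3 or 5 h at 100 ng/ml. The 8 conditions had 1 array each: 4 with melatonin (no LPS, or LPS for 1, 3 or 5 h) and 4 without (no LPS, or LPS for 1, 3 or 5 h). RAW264.7 is a single transformed line, and all groups share it. The sample titles set the LPS times; the treatment field of the labels gave times 1 step later for 3 of the 4 melatonin samples and none for the other. Values for the melatonin arm at a given time therefore rest on the titles.

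Members of the IL-12 family are heterodimers that share chains. IL-12 joins p35 (Il12a) to p40 (Il12b), IL-23 joins p19 (Il23a) to the same p40, IL-27 joins p28 (Il27) to Ebi3, and IL-35 joins p35 to Ebi3. Macrophages and dendritic cells make IL-12, IL-23 and IL-27 after Toll-like receptor stimulation. IL-12 and IL-23 drive T cell responses, IL-10 restrains them, IL-27 can do both, and IL-15 supports NK cells and memory T cells.

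A level below is the log2 processed signal of a probe minus the 75th percentile of its array, so 0 is the 75th percentile. Levels of different probes were not set against each other. A probe counted as detected on an array where the scanner software set its flag for a spot well above background. Il27, Ebi3 and all 3 Il15 probes were detected on 8 of 8 arrays, Il23a on 4, Il12b on 3, Il10 on 1 and Il12a on 0. A gene was tested if a probe of it was detected on at least 2 arrays, which 5 of the 7 genes passed (all but Il12a and Il10) and which left 20080 genes in all. Seen as pairs of chains, Il27 and Ebi3 were both detected on all 4 arrays with melatonin and all 4 without. Il23a and Il12b were both detected on 0 arrays with melatonin and 2 without, and Il12a with Il12b, or with Ebi3, on 0 of 8. The count for Il23a and Il12b turned on the Il12b flag alone, as Il23a was detected at 3 and 5 h in both arms. At 5 h Il12b stood at −3.49 with melatonin, where it was not flagged, and at −3.48 without, where it was.

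The probe sequences that follow are those of the genes whose reading turns on the probe: Il12a, which was never detected, Il27, which was called both for LPS and for melatonin, and the Il15 probe that ends in a stop codon (capitals). They are printed 5′ to 3′ as the files give them, with file coordinates on mouse build mm9: chr3:68498108-68498167 on the plus strand, chr7:133736137-133736196 on the minus strand and chr8:84855813-84855872 on the minus strand. Each is open in at least 1 reading frame over its 60 bases.
Il12a probe: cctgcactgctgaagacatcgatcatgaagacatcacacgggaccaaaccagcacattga
Il27 probe: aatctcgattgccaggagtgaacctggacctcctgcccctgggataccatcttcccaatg
Il15 probe A_55_P2744693: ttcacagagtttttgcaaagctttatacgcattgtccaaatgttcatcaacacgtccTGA

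Promoters were at hand for 3 of the 7 genes. Those of Il12b and Ebi3, a shared chain of IL-12 and IL-23 and one of IL-27 and IL-35, are shown; Il12a, never detected, is not: RefSeq, build GRCm38.p6, plus strand, the 250 bases before the annotated start, at chr11:44399813-44400062 and chr17:55952373-55952622. Capitals mark matches, on either strand, to GGGAATTT (half-site of NF-kB, the main LPS-activated factor) and TTGCAAT (half-site of C/EBP).
Il12b promoter: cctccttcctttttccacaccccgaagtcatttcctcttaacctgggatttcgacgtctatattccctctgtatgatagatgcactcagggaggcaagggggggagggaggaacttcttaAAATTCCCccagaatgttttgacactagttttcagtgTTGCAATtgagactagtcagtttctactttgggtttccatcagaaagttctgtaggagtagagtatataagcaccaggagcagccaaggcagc
Ebi3 promoter: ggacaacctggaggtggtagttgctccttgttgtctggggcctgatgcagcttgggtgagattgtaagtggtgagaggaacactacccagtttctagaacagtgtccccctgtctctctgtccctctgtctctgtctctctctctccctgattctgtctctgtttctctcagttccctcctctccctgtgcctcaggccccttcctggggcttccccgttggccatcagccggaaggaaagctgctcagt
The Il12b window held GGGAATTT (on the minus strand) from position −130 and TTGCAAT from position −93 relative to the start, without overlap. The Ebi3 window held neither. Of the 2 Il12a windows, 1 held TTGCAAT on the minus strand, from position −156. Among 32851 promoters of the same length, 0.843% held GGGAATTT and 1.96% TTGCAAT. Neither printed window held TGANTCA (AP-1; 6.749% of promoters). These are matches of letters only.

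The 75th percentile of signal was 718.7 to 846.1 on arrays with melatonin and 659.1 to 830.1 on those without, no spot was saturated, and 46.96% to 49.80% and 49.06% to 52.99% of probes were detected. Of 10 macrophage markers, 9 were detected on all 8 arrays and Mertk on none. Their summed level, in multiples of the 75th percentile, was 1137 to 1271 with melatonin and 1289 to 1510 without. Cd3e, Cd4 and Cd247 of 5 T cell markers were detected on all arrays (summed level 10.4 to 11.6 with melatonin and 13.3 to 17.4 without), Cd8a on none, and none of 5 epithelial or fibroblast markers on any. Of 6 dendritic cell markers, Siglech and Itgax were detected on all arrays, Zbtb46 on 7, Flt3 on 4 and Xcr1 and Clec9a on none. Their summed level was 221 to 247 with melatonin and 224 to 281 without. The part of these differences in the results was not tested. All 8 arrays lay on 1 slide, with each arm in its own row and each LPS time in its own column, so arm and row, and LPS time and column or hours in culture, cannot be told apart. In bulk RNA, fewer cells of a kind and less RNA per cell cannot be told apart.

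The first comparison asked how LPS moved each gene. It set the 2 arrays at each LPS time (1 per arm) against the 2 without LPS, in a limma model with melatonin as the other term. Calls below are at a Benjamini-Hochberg adjusted p under 0.05 over all 20080 genes, 2-sided. With 1 array per condition, every p measures only the spread between these arrays after both terms, which limma draws toward that of genes of similar signal. That spread is not one between replicates, and it includes any difference between the arms in their change with LPS.

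Il23a, Il27 and Ebi3 rose by 3 h of LPS, and at 5 h Il12b and Il15 had also passed the test. None of the 5 tested genes was called at 1 h (0 also at an unadjusted p under 0.05), where 1.63% of all genes were called higher. At 3 h, 3 of 5 were called higher, where 18.7% of all genes were. At 5 h it was 5 of 5, where 25.3% of all genes were. Il12b and Il23a had passed the filter only through LPS arrays, which sets their direction, so these counts describe the genes that passed and support nothing further. Il27 and Ebi3 were the 2 of 5 genes called higher at 3 h than at 1 h (9.41% of all genes). Il23a (at least 4.78-fold, and 2.47 log2 in the model) and Il15 (1.70 log2) were also higher in this step but were not called (limma adjusted p = 0.0722 and 0.0676). Between 5 and 3 h, 0 of 5 were called, also at an unadjusted p under 0.05, and 0.0996% of all genes were called in either direction. With the LPS times of the treatment field in place of those of the titles, 0 of 20080 genes were called at any time. The plot of levels shows all 7 genes.

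**Figure D1:**
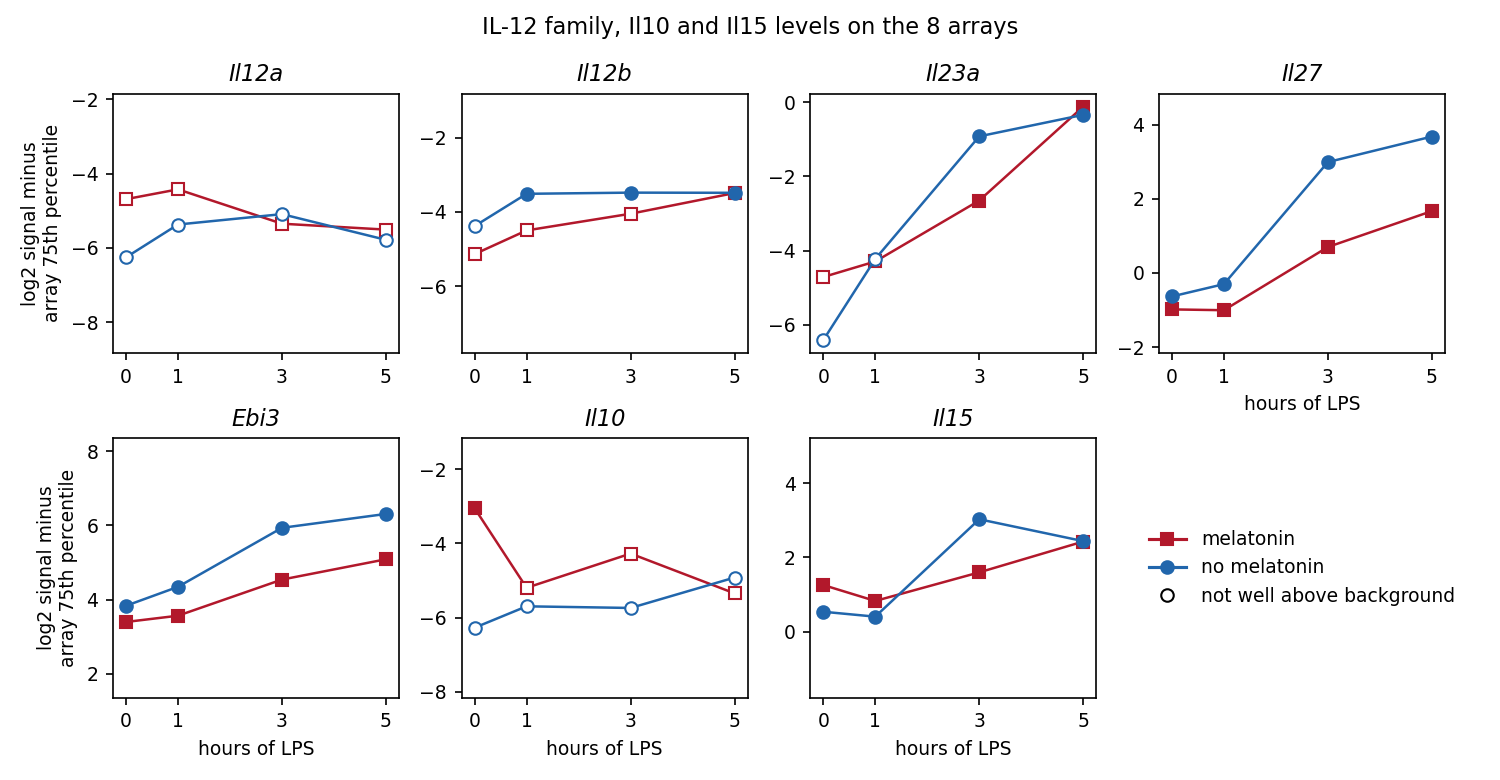
Level of each gene (log2 signal minus the 75th percentile of its array, y axis, whose span is at least 7 log2 in every panel) against hours of LPS (x axis), with 1 point per array, red squares for melatonin, blue circles for no melatonin and open symbols for arrays where the probe was not well above background. Il27 and Ebi3 lie lower with melatonin at every time, and Il12a is open on all 8 arrays.

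Il27 encodes p28, the chain specific to IL-27. With melatonin it stood at −0.98, −1.0, 0.70 and 1.67 at 0, 1, 3 and 5 h of LPS. Without melatonin it stood at −0.63, −0.30, 2.99 and 3.68 at the same times. In each arm the 3 h and 5 h arrays lay above the 0 h and 1 h arrays. The change over both arms was 0.16 ± 0.49 log2 at 1 h (SE, adjusted p = 0.926), 2.65 ± 0.49 at 3 h (adjusted p = 0.0112) and 3.48 ± 0.49 at 5 h (adjusted p = 0.0033). From 1 to 3 h alone the step was 2.50 log2 (adjusted p = 0.0258). The 3 h call was lost without the untreated array (1.99 log2, adjusted p = 0.0595) or without the LPS 3 h array (2.02 log2, adjusted p = 0.0787); the 5 h call was kept whichever array was left out.

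Ebi3 encodes the chain that IL-27 and IL-35 share. It stood at 3.40, 3.56, 4.54 and 5.09 at 0, 1, 3 and 5 h with melatonin. Without melatonin it stood at 3.83, 4.34, 5.93 and 6.31. Its level followed the order of the times in both arms. The change was 0.34 ± 0.23 log2 at 1 h (SE, adjusted p = 0.579), 1.62 ± 0.23 at 3 h (adjusted p = 0.00483) and 2.08 ± 0.23 at 5 h (adjusted p = 0.00151). The 3 h and 5 h calls did not turn on any single array. The 3 h step over 1 h was 1.28 log2 (adjusted p = 0.020), and this call was lost without the LPS 1 h array (1.16, adjusted p = 0.144), the LPS 3 h array (0.99, adjusted p = 0.128) or the melatonin with LPS 1 h array (1.40, adjusted p = 0.0923). Without those same 3 arrays the Il27 step was 2.07, 1.86 and 2.92 log2 and was not called either (adjusted p = 0.173, 0.159 and 0.0872).

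Il23a encodes p19, the chain specific to IL-23. With melatonin it stood at −4.71, −4.29, −2.65 and −0.12, and it was detected at 3 and 5 h only. Without melatonin it stood at −6.41, −4.23, −0.92 and −0.34, again detected at 3 and 5 h only. Because it was below detection without LPS, its rise is a bound against the lowest detected signal of those arrays. It was at least 4.69-fold higher at 3 h and at least 13.8-fold higher at 5 h (means −1.79 and −0.23, and −5.56 without LPS). The p-values belong to the model changes of 3.78 and 5.33 log2, which take undetected values as they are (limma adjusted p = 0.0130 and 0.00304). Il23a passed the filter only through its arrays at 3 and 5 h, so neither call is independent of the filter. Its 3 h call was lost without the untreated array (adjusted p = 0.0541) or the LPS 3 h array (adjusted p = 0.0648), or with dim signals raised to a common floor (adjusted p = 0.0811), and its 5 h call was kept without any single array. From 3 to 5 h its level gained 2.53 log2 with melatonin and 0.58 log2 without, 1 array against 1 in each arm, and this difference was not tested.

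Il12b encodes p40, shared by IL-12 and IL-23, and its probe was dim throughout. With melatonin it stood at −5.14, −4.50, −4.05 and −3.49 (signals of 16.9, 25.7, 33.6 and 44.5) and was detected on no array. Without melatonin it stood at −4.38, −3.51, −3.48 and −3.48 (signals of 27.6, 48.9, 42.7 and 40.7) and was detected at 1, 3 and 5 h. At 5 h the 2 arms had nearly the same level, and the flag alone differed. Its mean was −3.49 at 5 h and −4.76 without LPS, a model change of 1.27 log2 (limma adjusted p = 0.0286). Only 1 of the 2 arrays at 5 h detected it, so no bound on the fold is given. It entered the test only through LPS arrays without melatonin, so neither its LPS call nor its melatonin value is independent of the filter; at 3 h the change of 1.00 log2 had an adjusted p of 0.0729. The 5 h call was lost on leaving out any of 5 arrays, with adjusted p between 0.0508 and 0.145: those without LPS, those at 3 h, and melatonin with LPS 5 h. With all dim signals raised to 1 floor the change was 0.01 log2 (adjusted p = 0.809).

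Il12a encodes p35, shared by IL-12 and IL-35, and no array detected it. Its level was −4.69, −4.42, −5.35 and −5.51 with melatonin and −6.26, −5.37, −5.09 and −5.78 without, all below the lowest detected signal of each array (−3.86 to −3.50 with melatonin and −4.28 to −3.77 without). These values have no order and no fold was taken from them.

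Il10 encodes the cytokine best known for damping macrophage activation. It stood at −3.05, −5.20, −4.28 and −5.35 with melatonin and at −6.27, −5.70, −5.74 and −4.92 without. The 1 array that detected it was melatonin without LPS, where it was at least 2.20-fold higher than on the untreated array, 1 array against 1 and with no test. That array held 417 probes detected on it alone, and the other 7 arrays held 343 to 724 each. On none of the 6 LPS arrays was Il10 detected, which at this sensitivity does not show that it was absent.

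Il15 was read by 3 probes, and its level is that of the brightest, A_66_P133150. With melatonin this stood at 1.25, 0.83, 1.60 and 2.43 at 0, 1, 3 and 5 h. Without melatonin it stood at 0.53, 0.40, 3.03 and 2.44. With melatonin the highest array was that at 5 h, and without melatonin that at 3 h. The change was −0.28 log2 at 1 h (adjusted p = 0.855), 1.42 ± 0.49 at 3 h (SE, adjusted p = 0.0709) and 1.54 ± 0.49 at 5 h (adjusted p = 0.0466). The 5 h call was lost without either array at 1 h, either array at 5 h or the untreated array (adjusted p from 0.0619 to 0.246, and 1.01 log2 without the untreated array). It was also lost with quantile scaling (adjusted p = 0.0511), the deposited log2 table (0.0515), no filter on dim probes (0.103), a common floor (0.0975) or no intensity trend (0.0823). Without melatonin with LPS 3 h, the 3 h change was 2.32 log2 and was called (adjusted p = 0.00963).

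The 3 Il15 probes lay on mm9 chromosome 8, minus strand, and did not all move alike, as the plot by probe shows. A_55_P2744693, 141 bases from A_66_P133150, stood at −0.14, −0.43, 0.28 and 1.09 with melatonin and −0.82, −0.95, 1.63 and 1.02 without. Its 5 h change was 1.53 log2 (adjusted p = 0.0438), close to that of its neighbour. A_55_P2733222 was designed to a cDNA record and lay 6513 bases from A_55_P2744693 toward higher coordinates, which is upstream on the minus strand. It stood at −0.24, −1.76, 0.01 and −0.47 with melatonin and −0.97, −2.95, 0.83 and −1.43 without. In both arms this probe was lowest at 1 h and highest at 3 h. Its estimate at 1 h was −1.75 log2 against no LPS (adjusted p = 0.157). It gained 2.77 log2 from 1 to 3 h (adjusted p = 0.0177), and at 5 h its estimate was −0.35 log2 (adjusted p = 0.580). The Il15 call at 5 h therefore holds for the pair of nearby probes and not for the distant one. The genome annotation around these probes was not used here.

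**Figure D2:**
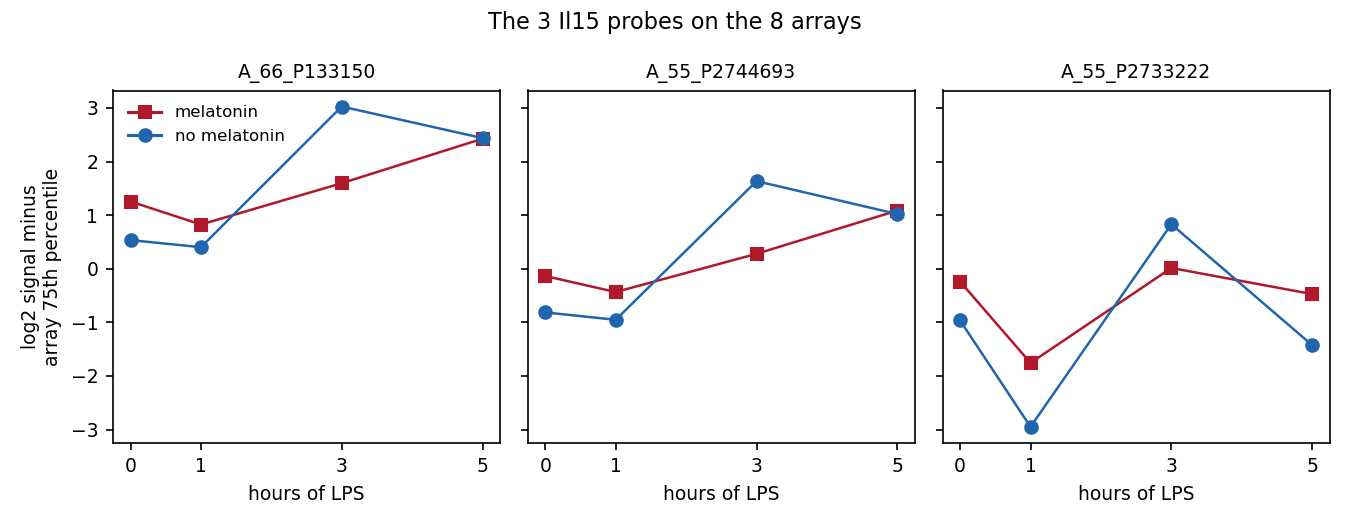
Level of the 3 Il15 probes (log2 signal minus the 75th percentile of the array, y axis) against hours of LPS (x axis), 1 point per array, red squares for melatonin and blue circles for no melatonin. The left and middle probes share one shape, while the right probe is lowest at 1 h and highest at 3 h in both arms.

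The second comparison asked how levels with melatonin differed from those without. The model set the 4 melatonin arrays against the 4 others, matched by LPS time. Il27 and Ebi3, the chains of IL-27, were lower with melatonin, and no tested member was called higher. That is 2 of 5 tested genes called lower, where 26.3% of all genes were called lower. In either direction it was also 2 of 5, close to the 41.3% of all genes, so the count does not set the members apart. Beside Il27 and Ebi3, 7 of 9 tested macrophage markers (median −0.39 log2) and 3 of 3 tested T cell markers (median −0.38 log2) were called lower with melatonin. Of the other tested markers, 2 of 4 for dendritic cells, 1 of 3 for B cells, 0 of 1 for NK cells and 0 of 2 for mast cells were. The part of this in the Il27 and Ebi3 values was not tested.

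Ebi3 averaged 4.15 with melatonin and 5.10 without (n = 4 arrays each), a difference of −0.96 ± 0.16 log2 (SE, limma adjusted p = 0.00818). It was lower with melatonin at 4 of 4 times, by 1.35-fold at 0 h, 1.71-fold at 1 h, 2.63-fold at 3 h and 2.33-fold at 5 h. The call held in each of 16 alternative settings, with adjusted p up to 0.0407. Il27 averaged 0.10 with melatonin and 1.43 without (n = 4 arrays each), a difference of −1.34 ± 0.35 log2 (SE, limma adjusted p = 0.0278). It was lower at 4 of 4 times, by 1.27-fold at 0 h, 1.63-fold at 1 h, 4.89-fold at 3 h and 4.02-fold at 5 h. The Il27 call was lost in 8 of its 16 alternative settings, among them leaving out any 1 of the arrays at 3 h (−1.02 log2, adjusted p = 0.0939 without LPS 3 h and 0.0933 without melatonin with LPS 3 h) or 5 h (−1.11 log2, adjusted p = 0.0949 without LPS 5 h and 0.0945 without melatonin with LPS 5 h). For both genes the values were lower with melatonin already before LPS. Of all genes, 42.4% were lower with melatonin at each of 1, 3 and 5 h.

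At single times with LPS, a difference of at least 1 log2 downward was rarer: 3.36% of all genes at 1 h, 5.57% at 3 h and 4.92% at 5 h. At 3 h, Il27 (−2.29), Il23a (−1.73), Il15 (−1.43) and Ebi3 (−1.39) were past that size, 4 of the 5 tested genes. At 5 h, Il27 (−2.01) and Ebi3 (−1.22) were, while Il23a (0.22) and Il15 (−0.01) were not. The distant Il15 probe, A_55_P2733222, differed by −0.82 log2 at 3 h and 0.95 at 5 h. These are differences of 1 array from 1 array, with no test, as the plot of melatonin differences shows.

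**Figure D3:**
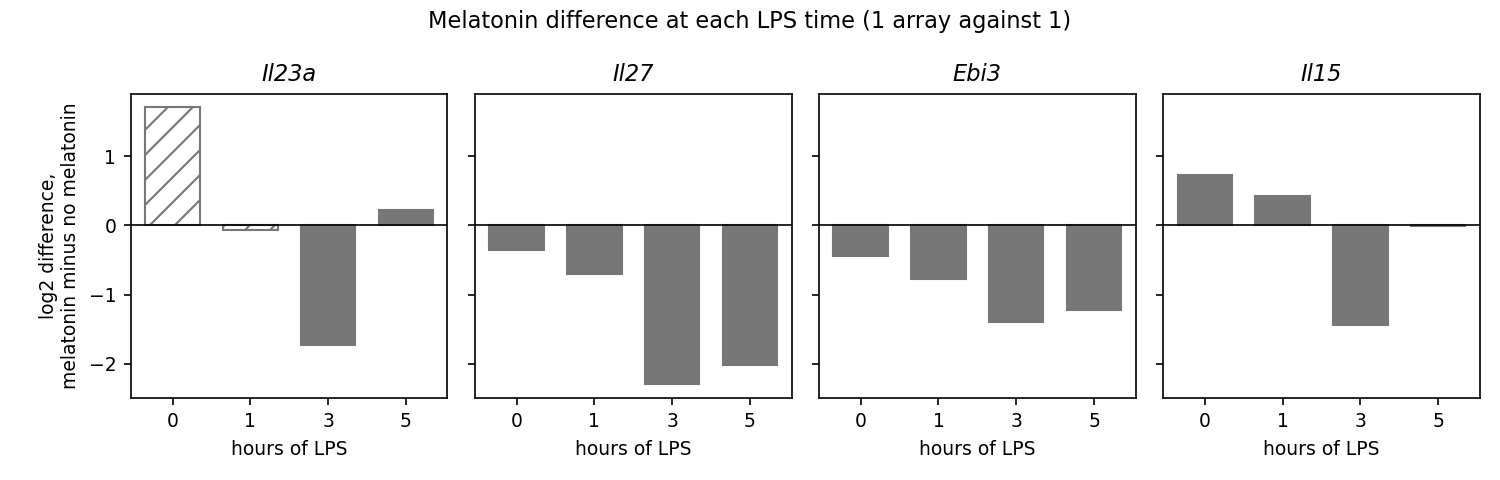
Difference in level, melatonin minus no melatonin, in log2 (y axis), at each LPS time in hours (x axis) for 4 genes, 1 array against 1 per bar; hatched bars are those where neither array was well above background. Il27 and Ebi3 are below 0 at every time, whereas Il23a and Il15 (brightest probe) are below −1 at 3 h and near 0 at 5 h.

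Over all times Il23a averaged −2.94 with melatonin and −2.98 without, a difference of 0.03 ± 0.52 log2 (SE, limma adjusted p = 0.964). Neither arm detected Il23a at 0 and 1 h, so this is not a measured absence of a difference. The undetected 0 h values differed by 1.70 log2 and the detected 3 h values by −1.73. Il15 averaged 1.53 with melatonin and 1.60 without, a difference of −0.07 ± 0.34 log2 (adjusted p = 0.873). The distant Il15 probe differed by 0.51 ± 0.33 log2 (adjusted p = 0.248). Il12b averaged −4.29 with melatonin and −3.71 without, a difference of −0.58 ± 0.24 log2 (adjusted p = 0.105). It was detected on 3 arrays without melatonin and on none with it, so no bound on the fold is given. On the array as a whole, 75 probes were detected on the 3 LPS arrays without melatonin and on no other, as Il12b was, and 8 probes on the 3 LPS arrays with melatonin and no other. The part of this difference in detection between arms in the Il12b values was not tested.

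Whether the melatonin difference changed once LPS was given was tested with a melatonin by LPS term, the mean difference at 1, 3 and 5 h minus that at 0 h. It was −1.32 log2 for Il27, −0.70 for Ebi3, −2.23 for Il23a, −1.06 for Il15 and 0.23 for Il12b. None of the 5 was called by limma (adjusted p = 0.909 for the first 4 and 0.967 for Il12b), and 0 of 20079 genes were (0% called), with 772 at an unadjusted p under 0.05. Among members, 2 were under an unadjusted 0.05, Il23a and Ebi3. Il27 was called on leaving out the melatonin with LPS 1 h array (−1.80 log2, adjusted p = 0.0491). The Il23a term rests on arrays without LPS that did not detect it.

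Receptors of these cytokines were counted in lists. Of 5 receptor chains for IL-12, IL-23 and IL-27, 4 were tested and Il23r was detected on no array. LPS changed 1 of 4 at 3 h, Il12rb1, the chain that IL-12 and IL-23 share (−0.61 log2, adjusted p = 0.0269; 15% of all genes were called lower), and 0 of 4 at 5 h, when Il12rb1 was 0.34 log2 above its level without LPS (adjusted p = 0.116). Their median change was −0.26 log2 at 3 h, where that of all genes was 0.06. Il12rb2 was detected on neither 3 h array, so this median rests in part on values below detection. With melatonin 1 of 4 was higher, Il6st, the gp130 chain of the IL-27 receptor (0.55 log2, adjusted p = 0.0397), and 14.9% of all genes were called higher.

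Of 5 chains for IL-10 and IL-15 receptors, 4 were tested and Il2rb was detected on no array. All 4 were called higher at 3 h of LPS (18.7% of all genes) and 3 of 4 at 5 h (25.3%). Il10ra, the ligand-binding chain for IL-10, rose by 1.31 log2 at 3 h and at 5 h (adjusted p = 0.00377 and 0.00255). Il2rg, the common gamma chain, rose by 0.81 and 1.06 log2 (adjusted p = 0.0058 and 0.00175). Il15ra, which presents IL-15 to other cells, rose by 0.67 and 0.89 log2 (adjusted p = 0.0434 and 0.0136). Il10rb rose by 0.38 log2 at 3 h (adjusted p = 0.0400) and was 0.31 higher at 5 h (adjusted p = 0.0573). With melatonin 2 of 4 were lower (26.3% of all genes), Il10ra and Il2rg, each by −0.69 log2 (adjusted p = 0.00897 and 0.00417). The list median was −0.54 log2 for melatonin, where that of all genes was −0.11.

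Of 10 JAK and STAT genes, which relay signals from these receptors, 9 were tested and Stat4 was detected on no array. LPS raised 2 and lowered 1 at 3 h, where 18.7% of all genes were called higher and 15% lower. It raised 3 and lowered 2 at 5 h, where 25.3% were called higher and 19% lower. Jak2 rose by 1.69 log2 at 3 h and 1.41 at 5 h (adjusted p = 0.000949 and 0.000936), and Jak3 fell by 0.69 and 0.90 log2 (adjusted p = 0.00881 and 0.00264). Jak1 rose by 0.47 and 0.31 log2 (adjusted p = 0.0126 and 0.0359). Stat3, which relays the IL-10 signal, rose by 0.67 log2 at 5 h (adjusted p = 0.0246). With melatonin 2 of 9 were lower, near the 26.3% of all genes: Stat3 by −0.54 log2 (adjusted p = 0.0188) and Stat5a, one of the factors that relay IL-15, by −0.43 log2 (adjusted p = 0.00366).

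Of 10 genes that IL-10 is known to raise in macrophages, many of which LPS is also known to raise, 5 were called higher at 1 h, 9 at 3 h and 9 at 5 h, and none lower, where 1.63%, 18.7% and 25.3% of all genes were called higher. Their median change was 2.42 log2 at 3 h and 2.76 at 5 h, where that of all genes was 0.06 and 0.09. Socs3, a feedback inhibitor of cytokine receptors, stood at 1.51, 4.80, 6.68 and 6.55 with melatonin and 1.82, 5.60, 6.91 and 6.57 without. It rose by 3.53 log2 at 1 h (limma adjusted p = 0.00113). Il10 was not detected on the 1 h arrays, which does not show that it was absent, and its part in this rise was not tested. Pim1 kinase and Zfp36, which destabilises cytokine mRNAs, were also up at 1 h, by 3.52 and 4.39 log2 (adjusted p = 0.00059 and 0.00277). With melatonin 4 of 10 were lower and 1 higher, where 26.3% and 14.9% of all genes were. Il1rn, the IL-1 receptor antagonist, differed most, at −2.47, −1.72, 0.39 and 1.89 with melatonin and −0.65, 0.14, 3.79 and 5.23 without (−2.61 log2, adjusted p = 0.00411). Tnfrsf1b, TNF receptor 2, differed by −0.91 log2 (adjusted p = 0.0221).

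**Figure D4:**
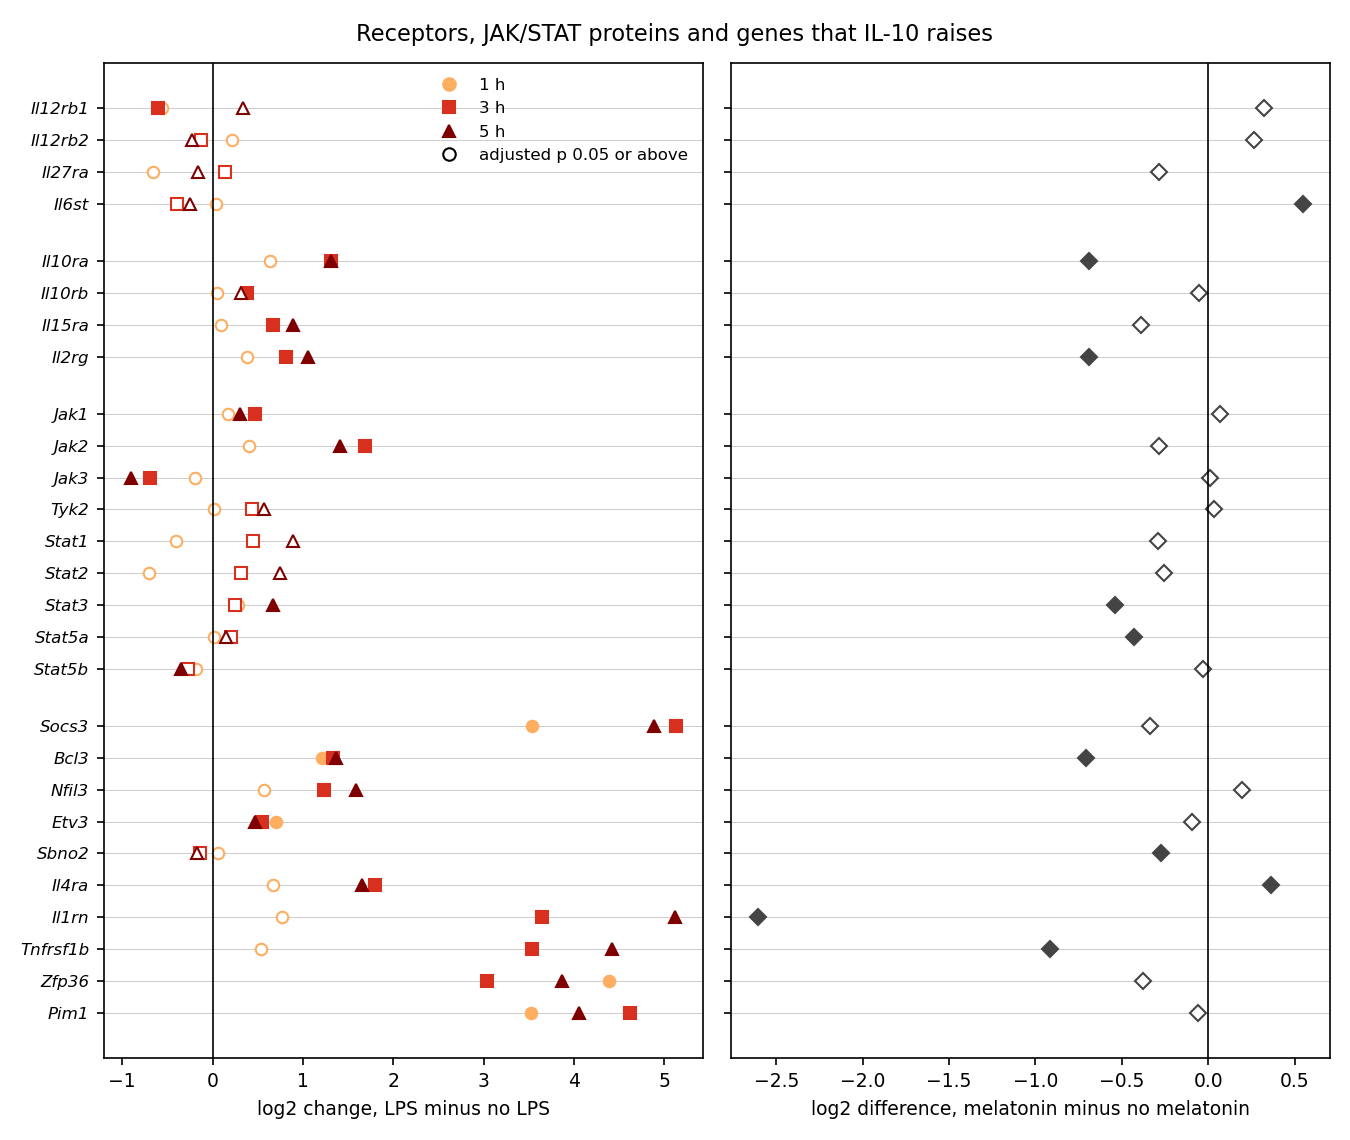
Log2 change with LPS at 1, 3 and 5 h (left, x axis) and log2 difference with melatonin (right, x axis) for tested genes of 4 lists, 1 row per gene in the order receptors of IL-12, IL-23 and IL-27, receptors of IL-10 and IL-15, JAK and STAT genes, and genes that IL-10 raises; open symbols are adjusted p of 0.05 or above. Il1rn lies farthest left for melatonin, at −2.61, and most of the last list lies right of 0 for LPS.

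Of 36 transcription factors, kinases and receptors known to act on these cytokine genes, 35 were tested and Batf3 was detected on no array. At 1 h 10 were called higher, where 1.63% of all genes were. At 3 h 19 were called higher and 2 lower, where 18.7% and 15% of all genes were. At 5 h 21 were called higher and 1 lower, where 25.3% and 19% of all genes were. Atf3, a repressor of Il12b, rose by 3.47, 5.78 and 5.62 log2 at 1, 3 and 5 h (adjusted p = 0.0152, 0.000654 and 0.000439). Nfkbiz, an NF-kB cofactor needed for Il12b, rose by 5.13, 5.12 and 4.97 log2 (adjusted p = 0.00701, 0.00123 and 0.000823). Batf, an AP-1 family factor, rose by 3.11 log2 at 3 h (adjusted p = 0.000264). The AP-1 genes Fos and Jun were 4.34 and 3.56 log2 down at 3 h from 1 h (changes of −4.34 and −3.56, adjusted p = 0.0143 and 0.000762), a step for which 6.72% of all genes were called lower. Atf3 and Nfkbiz were called from 1 h of LPS, and Il27, Ebi3 and Il23a from 3 h, where Il23a had passed the filter only through LPS arrays. Of the 35, 25 were not called at 1 h. Any link between these factors and the cytokine genes was not tested.

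With melatonin 9 of the 35 were lower and 4 higher, with a median of −0.15 log2 where that of all genes was −0.11. These shares are close to the 26.3% and 14.9% of all genes. Atf3 was lower by −1.22 log2 (adjusted p = 0.0181) and Batf by −0.48 log2 (adjusted p = 0.0182), and Jun was higher by 0.31 log2 (adjusted p = 0.0409). Chosen after the values were seen, Adora2a, an adenosine receptor, had the largest difference among those called (−1.71 log2, adjusted p = 0.00637), and Crem, a cAMP-response factor, the largest upward one (0.61 log2, adjusted p = 0.0046). Irf8, chosen likewise, a factor that activates Il12b and Il27, stood at 1.95, 2.15, 2.45 and 2.90 with melatonin and 2.39, 2.82, 3.88 and 4.56 without (−1.05 log2, adjusted p = 0.0143). It was lower with melatonin at each time, as 42.4% of all genes were at 1, 3 and 5 h.

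Of 9 other cytokines of the IL-10 and IL-2 families, 2 were tested, Il19 and Il22. Il20, Il24, Il2, Il4, Il7 and Il9 were detected on no array. Il22 was detected on 3 arrays, all with LPS and none with melatonin. It passed the filter through those arrays alone, so its values follow from the filter and are given as a description. It was at least 1.08-fold higher at 3 h and at least 1.26-fold higher at 5 h of LPS (mean −3.90 and −3.68, and −5.15 without LPS; adjusted p = 0.0476 and 0.0228). It was at least 1.03-fold lower with melatonin (mean −4.72 with and −3.72 without, adjusted p = 0.0293).

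As a description with no test, the genes whose levels ran closest to each tested member over the 8 arrays were taken from 5861 named genes with a range of at least 1 log2. All share the arrays and the design. For Il27 they were Rnf224 (Pearson r = 0.998), Afap1 (0.996) and Stambpl1 (0.996). For Ebi3 they were Stambpl1 (0.997), Pum3 (0.997) and Nle1 (0.996), so Stambpl1 stood near both chains of IL-27. For Il23a they were Lyrm1 (0.991), Rraga (0.991) and Rps6ka2 (0.987), for Il15 Trim34a (0.994), Trim26 (0.992) and Slc4a3 (0.984), and for Il12b Sra1 (0.968), Acta2 (0.967) and Actg1 (0.967).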

How the data were processed

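Total RNA of 8 RAW264.7 cultures was measured on 8 one-colour (Cy3) arrays, 1 per condition. Per the file headers, the deposited intensity values are processed signals, background-subtracted and detrended by Agilent Feature Extraction 12.0.3.1, a version also in the submitters' processing notes. Flags of 0 or 1 for spots well above background and outliers are deposited beside them. The deposited log2 table held the same sorted values on every array, as quantile scaling leaves them, and neither labels nor headers name its tool. The number of arrays limits the precision.

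Each log2 signal was scaled by the 75th percentile of its array, with 3671 of 62976 spots (controls) and outliers left out and spots of a probe averaged. Symbols were updated through RefSeq accessions (32994 probes matched, 1535 updated); 10314 probes without a symbol were kept under the accession or name in the file. Probes well above background on at least 2 arrays entered; for a gene with several, the brightest on average was used. R 4.3.3 and limma 3.58.1 (lmFit, eBayes with intensity trend; data.table (1.17.8) for reading) fitted LPS time and melatonin (3 residual degrees of freedom), and added melatonin by LPS in a further model (2 residual degrees of freedom). The fit code was run on simulated data with changes planted at 3 h of LPS and no melatonin effect. That run had independent noise, unlike these arrays, and checks the code only. Folds are bounds where no array of one group was well above background and all arrays of the other were. They set the mean of the brighter group against a mean over the dimmer group. For each dimmer array this took the higher of its lowest signal well above background and the probe's own signal.

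The members and lists were chosen with earlier results of these data known. Named from each list were at most the 5 genes with the largest change among those called, and those detected on no array; any other is marked. Neighbours by correlation were the 3 closest per member. Alternatives were normexp (offset 50), quantile scaling, the deposited table, other filters, a common floor, no trend, the other LPS times of the labels, other Il15 probes, and leaving out each array.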

Additional observations from a re-analysis of the deposited data

Results flagged for a closer look

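In 3 cases the 2 arms moved in opposite directions between the same LPS times, each with 1 array per condition; none of these differences was tested. Il27 changed by −0.02 log2 from 0 to 1 h of LPS with melatonin and by 0.33 without, a difference of −0.354 log2. The Il15 probe A_66_P133150 changed by 0.83 log2 from 3 to 5 h with melatonin and by −0.59 without, a difference of 1.42 log2. The Il15 probe A_55_P2744693 changed by 0.81 log2 over the same interval with melatonin and by −0.61 without, a difference of 1.42 log2. The 2 Il15 probes lie 141 bases apart and read the same arrays.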

How the results depend on the processing

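No paired analysis was possible because every condition was hybridised once; the arms were matched by LPS time in every fit. Of the single-gene values recomputed under alternatives, 460 kept their direction and side of the threshold, 51 lost a call, 8 gained one and 26 changed sign. Of these 26, the 1 called with all arrays was Il15 at 5 h of LPS, −0.35 log2 by the probe A_55_P2733222; by that probe Il15 was also −1.37 from 3 to 5 h and 0.51 for melatonin. The Il23a melatonin difference, near 0, was −0.13 with normexp, −0.034 with quantile scaling, −0.0076 with the deposited table, −0.38 with a common floor and −2.06 with the treatment-field times. Il15 at 1 h was 0.66 with those times, and Il12b for melatonin by LPS was −0.0093 with a common floor. Leaving out each array, the values that crossed 0 ran from −0.50 to 0.81 (Il27 at 1 h), −0.0080 to 0.69 (Ebi3 at 1 h), −0.81 to 0.25 (Il15 at 1 h), −0.031 to 0.51 (Il12b, 3 h against 1 h), −0.11 to 0.66 (Il12b, 5 h against 3 h), −0.78 to 1.02 (Il15, 5 h against 3 h), −0.52 to 0.62 (Il23a, melatonin), −0.34 to 0.38 (Il15, melatonin) and −0.023 to 0.47 (Il12b, melatonin by LPS). Normexp, quantile scaling and the deposited table left the number of members called within 1.5 times in each comparison. With LPS times from the treatment field, 0 members and 0 of 20080 genes were called at 3 h, 5 h or between 3 and 1 h, and 1 member for melatonin; no melatonin array without LPS remains under those times and the melatonin by LPS term could not be fitted. At 5 h, 3 members were called of 7 tested with no filter, 3 of 3 tested with only probes detected on all 8 arrays and 3 of 5 with a common floor. Between 3 and 1 h, 1 was called with no filter and 0 with a common floor or no trend. For melatonin, 1 (Ebi3) was called with no filter, a common floor or no trend. Leaving out each array gave 0 to 0 members at 1 h, 1 to 4 at 3 h, 3 to 4 at 5 h, 0 to 4 between 3 and 1 h, 0 to 0 between 5 and 3 h, 1 to 2 for melatonin and 0 to 1 for melatonin by LPS, which could not be fitted without either array lacking LPS. Over all genes these refits called 94 to 329 at 1 h (389 with all arrays), 2559 to 6795 at 3 h (6772), 4554 to 8431 at 5 h (8889), 343 to 3040 between 3 and 1 h (3238), 1 to 53 between 5 and 3 h (20), 4310 to 6895 for melatonin (8285) and 0 to 48 for melatonin by LPS (0). At 1 h, 140 genes were called with no filter, 92 with a common floor and 160 with no trend. Between 3 and 1 h it was 1780 with no filter and 1721 with no trend. Between 5 and 3 h it was 2, 1 and 2 under those 3 settings, 7 with normexp and 33 with quantile scaling or the deposited table. For melatonin it was 3577 with the treatment-field times. Signal over background limits Il12a, Il10 and Il12b.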
